A study of Rattus norvegicus with 5 samples.

Results

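The cells described here are retinal bipolar cells of the rat with transcripts of the ON cone pathway, other than rod bipolar cells and the cone bipolar cells that carry Htr3a, the gene of a serotonin-gated ion channel. They were chosen by their own transcripts, and 1792 of 44236 cell barcodes in 4 droplet libraries met the rule. A barcode entered with at least 200 genes, at most 40% mitochondrially encoded UMIs and at least 3 summed UMIs of Trpm1, Grm6, Isl1 and Gng13. UMIs, unique molecular identifiers, count captured transcript molecules. A barcode also needed at least 1 UMI of Scgn or Cabp2, at most 1 of the rod bipolar genes Prkca, Car8, Qpct and Vstm2b, 0 of Htr3a, and at most 1 of the amacrine genes Gad1, Gad2 and Slc6a9. The genes of this rule are described below but not tested.

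All animals were rats of the strain labelled SD, and the design names 1 retinal specimen per sample. The control rats (0 weeks) received citrate buffer. The diabetic rats received streptozotocin (STZ), a toxin of pancreatic beta cells, at 45 mg/kg, were taken as diabetic above 200 mg/dL blood glucose, and were then kept on a diet high in fat and sugar for 2, 4 or 8 weeks. The 4 libraries are 1 control (the sample labelled WT2) and 1 per diabetic time, and the other control sample was not analysed here. All 3 diabetic libraries had both STZ and the diet, so diabetes, diet, age, animal and preparation cannot be told apart. Age and sex are not given in the sources used here.

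Bipolar cells carry the signal of photoreceptors to amacrine and ganglion cells. ON bipolar cells respond to the drop of glutamate in light through the receptor mGluR6 (Grm6), whose G protein holds the cation channel TRPM1 (Trpm1) closed while glutamate is bound. OFF bipolar cells use ionotropic glutamate receptors such as that encoded by Grik1. Rod bipolar cells are the single ON type that serves rods, whereas several types of ON cone bipolar cell stratify at different depths of the inner plexiform layer. The transcription factor Isl1 is found in ON bipolar cells, and Scgn (secretagogin) and Cabp2 (calcium binding protein 2) encode calcium-binding proteins of cone bipolar types.

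The cells numbered 378 in the control library, 658 at 2 weeks, 259 at 4 weeks and 497 at 8 weeks. Their median depth was 3824, 2729.5, 3389 and 3491 UMIs per cell, and their summed depth 1562873, 1891842, 912082 and 1852752 UMIs. Median mitochondrial shares were 25.8, 21.4, 25.6 and 26.6%. Rod phototransduction genes took 0.597% of their UMIs in control, 1.76% at 2 weeks, 0.669% at 4 weeks and 0.657% at 8 weeks, so the library at 2 weeks held the most rod RNA and the shallowest cells. Pairs of libraries shared 13 to 70 barcode sequences, and 0 of these were members in both.

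The 5 marker genes of the rule are described first, but their presence was set by the choice of cells. Only genes outside the rule can check the label. Levels are given as CPM, UMIs per 1000000 UMIs summed over the cells of a library. Grm6 stood at 175, 164, 173 and 186 CPM in the control, 2, 4 and 8 week libraries, which is nearly the same in all 4. Trpm1 stood at 438, 645, 317 and 443 CPM and Isl1 at 217, 514, 175 and 247 CPM, both highest at 2 weeks. Scgn stood at 216, 214, 175 and 201 CPM, and Cabp2 at 418, 678, 528 and 484 CPM. Gnb3, the G protein beta subunit of ON bipolar cells and cones, reached 974 to 1438 CPM. Otx2, a transcription factor of bipolar cells, was listed at 0 in all 4 bipolar populations, as were the ganglion cell gene Slc17a6 in these cells and the rod bipolar gene Sebox. Otx2 was also listed at 0 in the rods of all 4 libraries, so its 0 says nothing particular about these cells.

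Most, but not all, of the members carried the defining ON genes. Of the 1792 cells, 1189 (66.4%) had at least 2 UMIs of Trpm1, Grm6 and Isl1 together, 267 had 1, and 336 (18.75%) had none and entered through Gng13 alone. The cells with none made up 16.4% of the members in control (exact binomial 95% interval 12.8 to 20.5%), 17.6% at 2 weeks (14.8 to 20.8%), 27.0% at 4 weeks (21.7 to 32.9%) and 17.7% at 8 weeks (14.5 to 21.4%). All intervals here cover counting error only. At least 1 UMI of the 3 genes was found in 83.6, 82.4, 73.0 and 82.3% of members, against 2.99, 3.45, 1.19 and 7.68% of rods in the same libraries, which should lack these transcripts. Rods are the barcodes within the gene and mitochondrial limits whose share of rod gene UMIs was above the library's median, 44.1 to 48.0% of all barcodes per library, and had medians of 978, 984.5, 974 and 1175.5 UMIs. With every barcode thinned to 1000 UMIs the shares were 53.1, 66.7, 41.4 and 51.1% of members and 2.05, 2.45, 0.805 and 4.81% of rods. For this 1774 members and 10286 rods were deep enough. Trpm1, Grm6 and Isl1 are part of the rule, so both gaps to rods were bound to appear and do not check the label.

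Barcodes at the edges of the rule were common on the cone side. An ON sum of exactly 3 admitted 83 members, and 73 barcodes that met the rest of the rule had 2. A single UMI of Scgn and Cabp2 admitted 759, and 2968 otherwise eligible barcodes had none. A single UMI of the rod bipolar genes was allowed in 567 members, and 245 barcodes were kept out by a second one. The limit on mitochondrial UMIs kept out 248. Scgn without Cabp2 was found in 609 members (34.0%), Cabp2 without Scgn in 881 (49.2%) and both in 302 (16.9%).

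**Figure D1:**
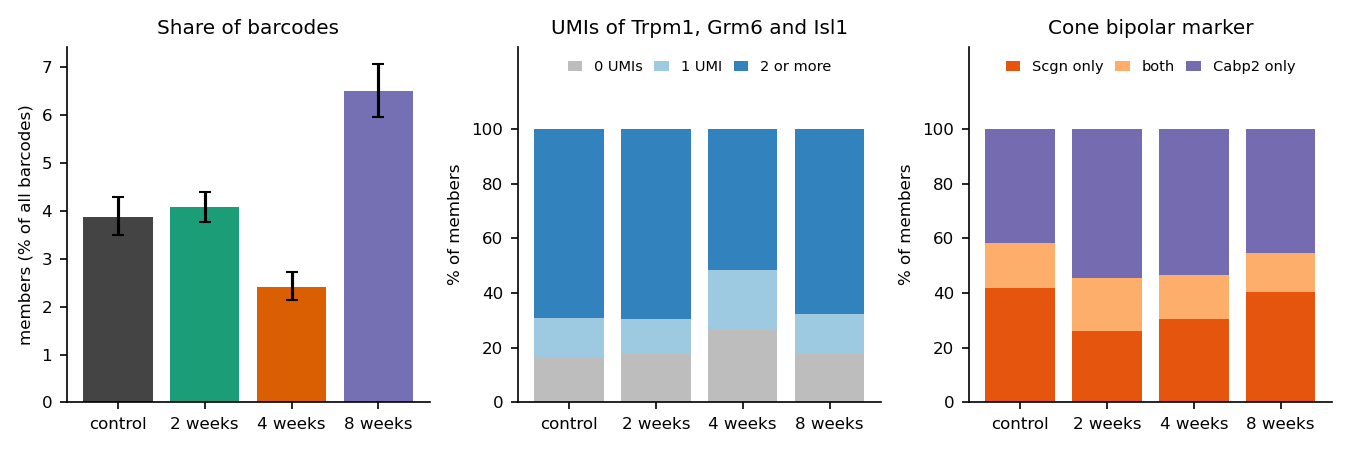
Left, share of barcodes of each library that met the rule, with exact binomial 95% intervals: 3.88, 4.08, 2.42 and 6.5%. Middle, split of the members by UMIs of Trpm1, Grm6 and Isl1 in percent; the part with none is widest at 4 weeks (27.0%). Right, split by Scgn only, both, and Cabp2 only in percent.

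The cells without Trpm1, Grm6 or Isl1 differed from the rest in genes that the split did not use. These subsets were made after their values were seen, so the values are a description without a test. Gnb3 stood at 144, 500, 505 and 249 CPM in cells with none of the 3 genes, at 699, 1211, 1172 and 667 CPM in those with 1 UMI, and at 1192, 1610, 1916 and 1384 CPM in those with at least 2. Gpr179, the receptor-like scaffold of the mGluR6 cascade, stood at 19.2, 27.6, 27.8 and 31.6 CPM against 104, 126, 84.7 and 96.2 CPM in the lowest and highest subset. Nyx, which encodes nyctalopin of the same synapse, and Gjd2, which encodes connexin 36, were also lower in the cells with none in all 4 libraries.

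Genes known from OFF cone bipolar cells, and Pvalb, ran the other way. Fezf2, a transcription factor, stood at 182, 121, 172 and 207 CPM in cells without the 3 ON genes and at 11.7, 6.48, 0 and 19.7 CPM in cells with at least 2 UMIs. The kainate receptor gene Grik1 stood at 148, 86.2, 148 and 112 CPM against 10.8, 5.76, 1.92 and 22.7 CPM. Pvalb, the gene of the calcium buffer parvalbumin, stood at 359, 290, 380 and 365 CPM against 22.6, 5.76, 1.92 and 18.2 CPM. In every library the subset with 1 UMI lay between the outer subsets for Gnb3, Fezf2, Grik1 and Pvalb. The markers thus fit the name ON bipolar for the 1189 cells with at least 2 UMIs. The word cone in their name rests on Scgn, Cabp2 and few UMIs of the rod bipolar genes, which the rule set. The cells with none of the 3 ON genes are called here cells that met the rule through Gng13. All 3 subsets are in the results below unless the cells with at least 2 UMIs are named.

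**Figure D2:**
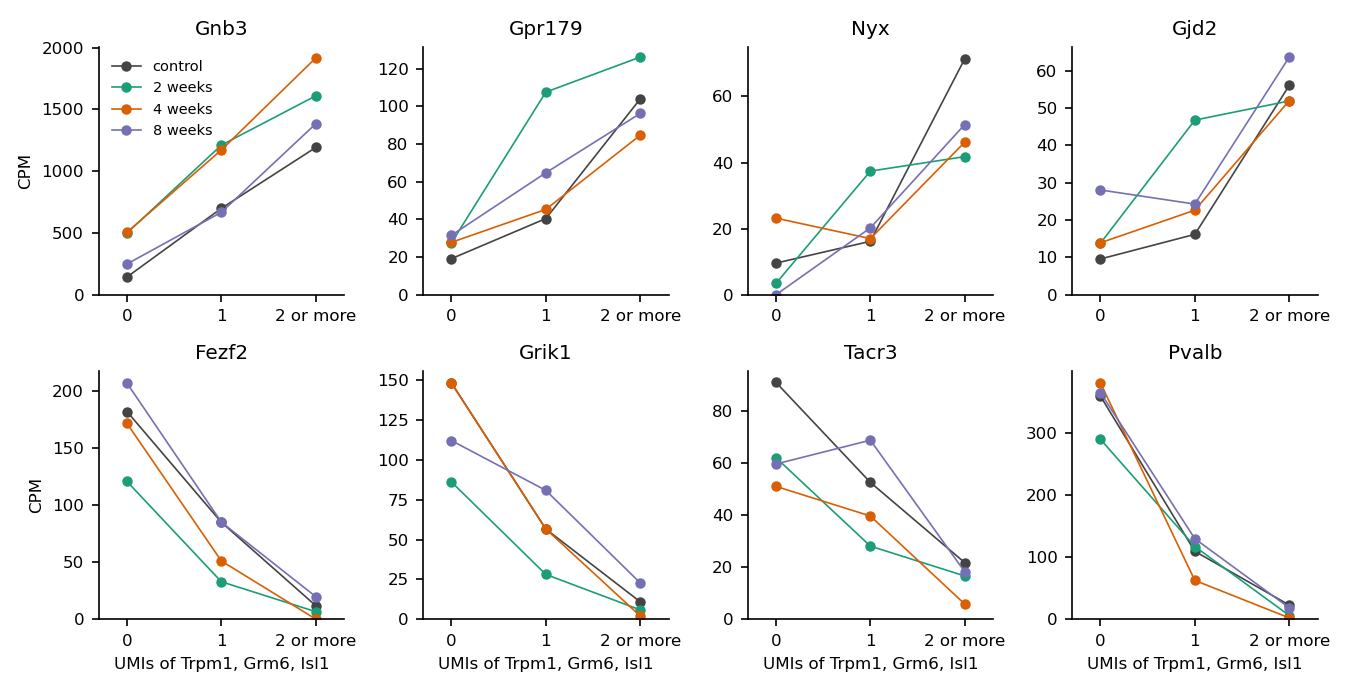
CPM of 8 genes in members with 0, 1, or at least 2 UMIs of Trpm1, Grm6 and Isl1, each point 1 library. Gnb3, Gpr179, Nyx and Gjd2 are highest with at least 2 UMIs, and Fezf2, Grik1 and Pvalb are highest with none, as is Tacr3 except at 8 weeks.

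Among the cells with at least 2 UMIs of the ON genes, Scgn and Cabp2 marked cells with unlike transcripts. In Scgn-only cells Meis2, a homeobox transcription factor, stood at 298, 239, 220 and 209 CPM, and in Cabp2-only cells at 11.7, 11.4, 4.7 and 9.16 CPM. Hpca, the gene of the calcium sensor hippocalcin, stood at 317, 251, 405 and 311 CPM against 5.85, 6.53, 14.1 and 18.3 CPM. Sparcl1, which encodes a secreted matrix protein, stood at 968, 825, 330 and 283 CPM against 26.3, 21.2, 0 and 0 CPM. Sox6 and Nfia, both transcription factors, were likewise higher in the Scgn-only cells of all 4 libraries. In the cone bipolar cells with Htr3a, Meis2 stood at 359, 442, 325 and 363 CPM and Hpca at 403, 522, 435 and 437 CPM. These levels, and those of Sparcl1 given below, were above the Scgn-only cells in each library. A cell of that kind without a captured Htr3a UMI would meet the rule. Whether the Scgn-only cells include such cells was not tested.

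Other genes were higher in the Cabp2-only cells. Pcp2, a regulator of G protein signalling in ON bipolar cells, stood at 228, 347, 330 and 433 CPM in Scgn-only cells and at 1760, 2226, 2596 and 3072 CPM in Cabp2-only cells. Serpini1, the gene of neuroserpin, stood at 41, 59.1, 60 and 43.4 CPM against 635, 305, 531 and 575 CPM. Kcnma1, which encodes the large-conductance calcium-activated potassium channel, stood at 114, 213, 115 and 158 CPM against 506, 585, 536 and 598 CPM. These values show at least a pair of unlike groups among the cells and were not tested.

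The 4 promoter sequences below belong to genes by which the cells were chosen (Trpm1 and Cabp2) and to Sparcl1, one of the genes called between these cells and each of the other bipolar populations. Each is the 250 bases before a transcription start in the RefSeq assembly GRCr8, on the plus strand, 5′ to 3′. Capitals mark the motif TAATCC or its reverse complement GGATTA, the core recognised by photoreceptor and bipolar homeodomain factors of the OTX family. The motif was searched on both strands and was found in 2121 of 33469 promoters of the same length (6.34%).
Trpm1 (chr1:127130436-127130685): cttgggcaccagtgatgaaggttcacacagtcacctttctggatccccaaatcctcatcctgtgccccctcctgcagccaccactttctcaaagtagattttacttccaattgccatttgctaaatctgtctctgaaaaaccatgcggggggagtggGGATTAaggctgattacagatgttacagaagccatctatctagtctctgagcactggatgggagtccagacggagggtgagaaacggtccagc
Cabp2, upstream start (chr1:210803861-210804110): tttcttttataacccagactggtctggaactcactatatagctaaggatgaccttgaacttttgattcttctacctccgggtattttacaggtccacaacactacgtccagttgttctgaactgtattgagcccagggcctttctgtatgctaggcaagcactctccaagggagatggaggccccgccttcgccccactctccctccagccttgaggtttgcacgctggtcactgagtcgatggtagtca
Cabp2, downstream start (chr1:210805833-210806082): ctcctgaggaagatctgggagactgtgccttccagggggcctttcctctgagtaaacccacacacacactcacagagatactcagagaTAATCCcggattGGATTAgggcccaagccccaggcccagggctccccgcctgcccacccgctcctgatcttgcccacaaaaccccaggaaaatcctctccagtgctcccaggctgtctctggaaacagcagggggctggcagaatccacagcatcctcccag
Sparcl1 (chr14:5937234-5937483): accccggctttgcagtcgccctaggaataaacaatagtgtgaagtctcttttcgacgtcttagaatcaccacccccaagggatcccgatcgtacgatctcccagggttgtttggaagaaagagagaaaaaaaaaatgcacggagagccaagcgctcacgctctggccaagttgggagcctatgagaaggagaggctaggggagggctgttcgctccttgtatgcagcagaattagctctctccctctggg
The Trpm1 window holds 1 match, 93 bases before the start, and the downstream Cabp2 window holds 2, at 162 and 150 bases. The other windows hold none of these letters, and a match is a description of the sequence only.

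The cells made up 3.88% of barcodes in control (exact binomial 95% interval 3.51 to 4.28%), 4.08% at 2 weeks (3.78 to 4.40%), 2.42% at 4 weeks (2.13 to 2.73%) and 6.498% at 8 weeks (5.96 to 7.07%). Only 1 library stands behind each share, so no test between groups was possible. The log2 ratio of shares to control was 0.07 (-0.11 to 0.26) at 2 weeks, -0.68 (-0.92 to -0.45) at 4 weeks and 0.74 (0.55 to 0.94) at 8 weeks. As a share of the cells of the 4 bipolar populations the ratio was -0.34 (-0.53 to -0.16) at 2 weeks, -0.14 (-0.38 to 0.09) at 4 weeks and -0.22 (-0.42 to -0.02) at 8 weeks. The direction at 2 and 8 weeks thus depended on whether all barcodes or bipolar cells formed the denominator. With barcodes thinned to 1000 UMIs the ratio was 0.67, 0.00 and 0.68, and the difference at 4 weeks was gone. The thinned shares have another denominator, the 6299, 10466, 5866 and 6015 barcodes with at least 1000 UMIs. Fewer cells of a kind and fewer transcripts per cell cannot be told apart in such shares. A shallower cell reaches the minimum counts of the rule less often and stays within its upper limits more often.

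The first comparison across libraries asked how the cells differed from rod bipolar cells of the same libraries (1992 barcodes with at least 2 UMIs of the rod bipolar genes). UMIs were summed per library and population, the 4 libraries served as replicates, and edgeR's quasi-likelihood test took the library as a block. A gene was called at a Benjamini-Hochberg adjusted p under 0.05 and at least 2-fold. Of 8803 genes tested, 358 were higher (4.07%) and 284 lower (3.23%) in the cells than in rod bipolar cells. Genes of the rules were not tested, but genes that vary with them were bound to differ. The test therefore describes populations that were set apart by their transcripts.

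Sparcl1 stood at 392, 244, 82.2 and 115 CPM in the cells and at 50.0, 45.7, 4.18 and 14.4 CPM in rod bipolar cells, with no overlap between the populations (log2 2.84, SE 0.26, adjusted p = 0.000222 by edgeR). Sparcl1 lost its call without the library block (adjusted p = 0.0617 by edgeR). Hpca stood at 138.2, 86.2, 128.3 and 147.9 CPM against 27.0, 9.64, 37.6 and 28.1 CPM (log2 2.42, SE 0.31). Its call was lost among cells with at most 20% mitochondrial UMIs (log2 1.14, adjusted p = 0.275 by edgeR). Meis2 stood at 125, 72.4, 69.1 and 92.3 CPM against 18.2, 9.89, 13.4 and 28.4 CPM, and Cdh9, a cadherin of synaptic adhesion, at 158, 135, 146 and 145 CPM against 44.6, 21.0, 43.5 and 38.9 CPM. In each of the 4 libraries these genes were higher in the cells than in rod bipolar cells.

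The other named genes of that side were Phlda1, Crtac1, Adcy2 (an adenylate cyclase), Cdh19 (a cadherin), Tp53i11, Dagla (the lipase that makes the endocannabinoid 2-AG), Kcna6 (a voltage-gated potassium channel) and Grin2b (an NMDA receptor subunit). Their log2 differences ran from 1.73 to 2.41. Grin2b stood at 44.2, 37.0, 78.9 and 45.3 CPM against 15.5, 7.86, 20.1 and 18.0 CPM. In the cells with at least 2 UMIs of Trpm1, Grm6 and Isl1, Grin2b turned to the other direction (log2 -0.51, adjusted p = 0.262 by edgeR). Tp53i11 also lost its call there (log2 0.56, adjusted p = 0.135 by edgeR).

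On the lower side, Lrrtm4, an organiser of rod bipolar synapses, was nearly absent at 0.64, 0.53, 0 and 1.62 CPM against 67.5, 75.8, 57.7 and 71.9 CPM in rod bipolar cells (log2 -6.30, SE 0.30, adjusted p = 2.3e-21 by edgeR). Vav3, a guanine nucleotide exchange factor, stood at 3.20, 1.06, 1.096 and 1.62 CPM against 96.6, 140, 86.1 and 73.5 CPM. Ccdc136 stood at 23.0, 10.0, 27.4 and 29.7 CPM against 430, 716, 571 and 552 CPM. No library of the cells reached the level of any rod bipolar library in these genes. The others named were Ccng1 (cyclin G1), Calb2 (calretinin), Tmem196, Cep112, Prrc1, Tifa, Amigo2 and Asmt, with log2 differences from -3.72 to -2.30. Calb2 varied most among rod bipolar libraries, from 18.2 CPM in control to 353.7 CPM at 4 weeks, and the highest library of the cells (19.7 CPM) lay above that control. Amigo2 missed the threshold among cells with at most 20% mitochondrial UMIs (adjusted p = 0.0993 by edgeR).

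Of 13 tested genes of a list named ON cascade, which leaves out rule genes, 0 were higher and 4 lower in the cells. Their median log2 was -0.62 against -0.01 over all genes. The 4 were Lrrtm4, Ccdc136, Lrit3 and Pcp2. The list is wider than the mGluR6 and TRPM1 cascade and includes genes such as Lrrtm4, Ccdc136 and Calb1. Its counts are therefore not counts of cascade genes alone. Pcp2 stood at 1094, 1566, 1755 and 1639 CPM in the cells and between 6393 and 9093 CPM in rod bipolar cells (log2 -2.29, SE 0.20, adjusted p = 3.93e-05 by edgeR). Gnb3, Gnao1, Gpr179 and Nyx differed by less than 2-fold. Of 22 voltage-gated and leak channel genes, 9 were higher and 0 lower, with a median of 0.37. Kcnma1 stood at 359 ± 39.2 CPM against 144 ± 24.0 CPM (SD, n = 4 libraries), Cacna1h, a T-type calcium channel, at 118 ± 16.9 against 47.9 ± 11.0 CPM, and Hcn4, a pacemaker channel, at 56.9 ± 9.14 against 21.1 ± 10.2 CPM. The others were Cacna1d, Cacna2d1, Kcna1, Kcnab1, Kcnk2 and Scn1a. In cells with at least 2 UMIs of the ON genes Cacna2d1 and Scn1a fell short of 2-fold (log2 0.88 and 0.64).

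Of 16 bipolar transcription factors, 4 were higher than in rod bipolar cells (Meis2, Nfia, Nfib and Ebf1) and 4 lower, among them Bhlhe23, Prdm8 and Prdm1 with log2 differences of -1.22, -1.44 and -1.37. Of 25 genes of the synaptic ribbon and vesicle release, 1 was higher (Rims1) and 1 lower (Unc13b). In cells with at least 2 UMIs of the ON genes Nfib was not called (log2 1.08, adjusted p = 0.102 by edgeR), and Bhlhe23 and Rims1 fell short of 2-fold (log2 -0.89 and 0.89). The 36 nuclear and 13 mitochondrial genes of the respiratory chain had median log2 differences of -0.04 and -0.08, near that of all genes. Rod RNA moved with this comparison. Of 9 tested rod genes 6 were lower in the cells, with a median log2 difference of -1.08. The other differences were recomputed with a rod profile subtracted, after which 505 genes were called in place of 642.

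The next comparison set the cells against the cone bipolar cells with Htr3a (997 barcodes). In the same fit 368 genes were higher (4.18%) and 158 lower (1.79%). Kcnma1 stood at 312, 408, 357 and 361 CPM in the cells and at 26.6, 20.5, 11.2 and 30.01 CPM in the Htr3a cells (log2 3.85, SE 0.18, adjusted p = 4.92e-12 by edgeR). Pcp4l1, a relative of the calmodulin regulator PCP4, stood at 102, 129, 132 and 65.9 CPM against 1.02, 8.18, 0 and 4.62 CPM. Irx6, an Iroquois transcription factor, stood at 70.4, 72.4, 54.8 and 67.5 CPM against 7.16, 5.12, 0 and 4.62 CPM. None of these overlapped between the populations.

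Cabp1, a calcium sensor, stood at 423, 357, 452 and 359 CPM against 32.7, 37.8, 35.0 and 43.1 CPM (log2 3.29, SE 0.13). Reln, the gene of the extracellular protein reelin, stood at 157, 188, 94.3 and 181 CPM against 15.3, 24.6, 9.55 and 14.6 CPM. Rnf182, Grin2b, Zcchc12, Ldb2, Pvalb, Gngt2 and Nrcam completed the higher side, with log2 differences of 2.76 to 3.60. Pvalb and Grin2b lost their calls in cells with at least 2 UMIs of the ON genes (log2 0.43 and 1.02, adjusted p = 0.822 and 0.106 by edgeR). Among cells with at most 20% mitochondrial UMIs, Ldb2, Pvalb and Gngt2 lost theirs (adjusted p = 0.322, 0.171 and 0.0558 by edgeR).

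Sparcl1, Meis2, Hpca and Sox6, which were higher in the cells than in rod bipolar cells, were lower in them than in the Htr3a cells. Sparcl1 stood at 1281, 1415, 433 and 352 CPM in the Htr3a cells, lower in the cells within each library although the ranges overlap (log2 -2.14, SE 0.22, adjusted p = 0.000532 by edgeR), a call that was lost without the library block (adjusted p = 0.153 by edgeR). Hpca stood at 403, 522, 435 and 437 CPM there, and its call was lost among cells with at most 20% mitochondrial UMIs (adjusted p = 0.132 by edgeR). Cdkn2c, a cell cycle inhibitor, stood at 43.5, 27.5, 32.9 and 45.3 CPM in the cells and 163, 196, 188 and 181 CPM in the Htr3a cells. The remaining named genes were Sfrp2 (a Wnt inhibitor), Slc24a2 (a sodium, calcium and potassium exchanger), Thrsp, Dbh, Tnfaip8l3, Nf1x and Shisa8, with log2 differences from -2.34 to -1.97. Shisa8 lost its call without the 8 week library (adjusted p = 0.0686 by edgeR).

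By list, 6 of 16 bipolar transcription factors were higher than in the Htr3a cells (Irx6, Irx5, Fezf2, Ebf1, Bhlhe23 and Zfhx4) and 3 lower (Meis2, Nfia and Lhx4), with a median of 0.63 against -0.01 over all genes. In cells with at least 2 UMIs of the ON genes Fezf2 and Irx5 lost their calls (log2 0.35 and 1.51, adjusted p = 0.762 and 0.133 by edgeR). In the ON cascade list 3 of 13 were higher (Pcp2, Calb1 and Tpbg) and 1 lower (Nyx), with a median of 0.09. In cells with at least 2 UMIs Tpbg was not called (log2 0.67, adjusted p = 0.609 by edgeR) and Nyx fell short of 2-fold (log2 -0.70). Of 15 calcium binding protein genes 5 were higher and 3 lower (median 0.14), and of 13 receptor genes for GABA and glycine 3 were higher and 1 lower (median 0.41). The higher ones included Gabrb2 and Gabrr3, which encode GABA receptor subunits, with log2 differences of 2.75 and 1.70. In the sodium pump and ion homeostasis list 0 of 11 were higher and 3 lower (median -0.30), among them the calcium pump gene Atp2b1 and Slc24a2. In cells with at least 2 UMIs Atp2b1 fell short of 2-fold (log2 -0.87).

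OFF cone bipolar cells were rare under their rule, with 131 barcodes of which 19 were in control, so that only the 3 diabetic libraries entered. Their rule allowed at most 1 UMI of Trpm1, Grm6, Isl1 and Gng13, which leaves an unusual part of OFF cells. In this comparison 132 genes were higher (1.5%) and 107 lower (1.22%) in the cells. The 8 week library decided much of it, since 113 genes in all were called without it against 239 with it. Gnb3 stood at 1394, 1438 and 1113 CPM at 2, 4 and 8 weeks in the cells and at 0, 12.8 and 34.4 CPM in OFF cells (log2 6.07, SE 0.28, adjusted p = 6.97e-12 by edgeR). For 6 named genes the OFF cells of the 3 libraries held 0 UMIs of 364519. Set against 3 UMIs over that group, Sparcl1 was at least 19.6-fold higher in the cells and Vipr2, the receptor of vasoactive intestinal peptide, at least 18.6-fold.

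The bounds were at least 13.2-fold for Adcy2, 9.65-fold for Ano3, 8.40-fold for Cdh19 and 7.75-fold for St18. Without the 8 week library Sparcl1, Adcy2 and Phlda1 were no longer called (adjusted p = 0.224, 0.0935 and 0.0557 by edgeR). Without the 4 week library Ldb2 was not called (adjusted p = 0.135 by edgeR), and Sparcl1 was not called without the library block (adjusted p = 0.316 by edgeR). The other higher genes named were Reln, Shisal1 and Map6. The higher side thus shared Sparcl1, Phlda1, Adcy2 and Cdh19 with the comparison against rod bipolar cells by name, and the overlap was not tested.

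The lower side of the OFF comparison held OFF genes and transcription factors. S100a7l2 stood at 90.9, 255 and 102.5 CPM in the cells and at 2172, 2979 and 1599 CPM in OFF cells (log2 -3.90, SE 0.32, adjusted p = 0.000159 by edgeR). Neto1, an auxiliary subunit of kainate receptors, stood at 4.23, 18.6 and 32.9 CPM against 241, 269 and 246 CPM. The transcription factor Ebf1 stood at 12.7, 14.3 and 10.3 CPM against 152, 217 and 161 CPM. Irx5, Pde1a (a cyclic nucleotide phosphodiesterase), Rcan2, Fgf10, Nxph1, Slamf9, Vsnl1 and Chrna4 (a nicotinic receptor subunit) were also lower, with log2 differences from -3.88 to -2.98. Fgf10, Nxph1 and Vsnl1 were not called without the 8 week library (adjusted p = 0.113, 0.106 and 0.158 by edgeR), Nxph1 without the 4 week library (0.0554) and Vsnl1 without the 2 week library (0.107).

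Of the 13 tested genes of the ON cascade list, 4 were higher than in OFF cells (Gnb3, Pcp2, Gpr179 and Gnao1) and 0 lower. Their median log2 was 0.71 against 0.11 over all genes. Gpr179 stood at 84.8 CPM on average in the cells and at 15.5 CPM in OFF cells. Of 16 bipolar transcription factors 2 were higher (Bhlhe23 and Nfia) and 5 lower (Ebf1, Irx5, Irx6, Bhlhe22 and Zfhx4). Irx6, which was higher in the cells than in Htr3a cells, was lower than in OFF cells (64.9 against 371 CPM).

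**Figure D3:**
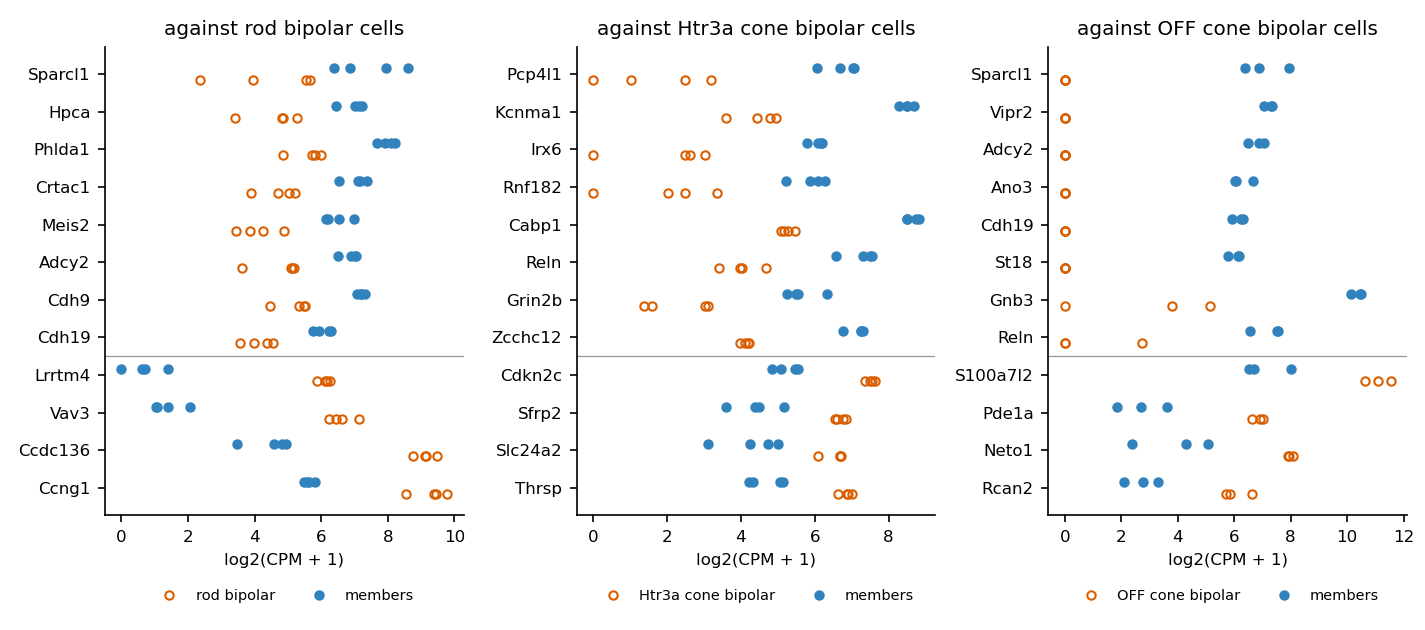
log2(CPM + 1) per library of the 8 highest and 4 lowest named genes of each comparison, filled points for the cells and open points for the population compared (rod bipolar, Htr3a cone bipolar, OFF cone bipolar). The OFF panel has the 3 diabetic libraries, and the populations do not overlap in any gene shown.

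The mitochondrial share was lower in the cells than in rod bipolar cells in 4 of 4 libraries. The median over cells was 25.8, 21.4, 25.6 and 26.6% against 28.7, 24.4, 26.7 and 27.8%, a mean difference of -2.04 points (SD 1.03, n = 4). The exact sign-flip permutation test gave p = 0.13 two-sided, the smallest value that 4 pairs allow. Against OFF cells the difference was -2.13 points (SD 0.598, n = 4, exact p = 0.13), with 19 OFF cells in control. The rule caps the share at 40%, and without that limit the differences were -3.76 and -4.75 points. As a share of pooled UMIs the difference to rod bipolar cells was -1.13 points (exact p = 0.375), and it was positive at 8 weeks. The Htr3a cells had still lower medians in all 4 libraries, at 23.7, 18.2, 23.6 and 25.9%. The cells thus lay between the Htr3a cells and the rod bipolar cells, and the difference to the Htr3a cells was not tested.

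The last comparison asked how the cells of each diabetic library differed from those of the control library. There is 1 library per group, so the ratios carry exact conditional binomial 95% intervals for counting error and no test. The 3 ratios share the control library. A gene counted as higher or lower when its CPM differed at least 2-fold with an interval off 0. At 2 weeks 114 of 5425 used genes were higher (2.1%) and 75 lower (1.38%). At 4 weeks 86 of 5424 were higher (1.59%) and 116 lower (2.14%), and at 8 weeks 22 of 5425 were higher (0.406%) and 42 lower (0.774%). The median log2 ratio over all used genes was 0.12, 0.08 and 0.04. Fewest genes were called at 8 weeks.

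A few barcodes with RNA of other cell types bore on these counts. Of the 1792 members, 43 (2.40%) held many UMIs of vascular, microglial, cone, Müller glial or erythroid markers, namely 10 in control, 20 at 2 weeks, 3 at 4 weeks and 10 at 8 weeks. One control barcode of 33795 UMIs held 332 UMIs of endothelial markers, 281 of the 291 Cldn5 UMIs of all control members, 92 of the 100 Zfp36 UMIs and 115 of the 161 Atf3 UMIs. Another of 20145 UMIs held 7519 of the 8052 UMIs of Hba-a2, an alpha globin. Summed over the members, endothelial markers ran from 1.096 to 222 CPM and erythroid markers from 41.7 to 5253 CPM, both highest in control. Microglial markers ran from 3.29 to 79.3 CPM and were nearly equal in control (79.3 CPM) and at 8 weeks (78.3 CPM). All results between libraries were therefore also computed without these 43, an alternative chosen after seeing the data.

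At all 3 times 3 genes were higher (0.0553% of genes used) and 11 lower (0.203%). None of the 14 was taken as a named gene. Crot and Sgk1 lay below their level over all barcodes, Rps6 and LOC102550036 were left out by their symbols alone, and in each of the others 1 cell held over 25% of the UMIs. They are named here after their values were seen. The higher ones were Crot, a peroxisomal carnitine acyltransferase, Pde6h, a cone phosphodiesterase subunit, and LOC102550036. The lower ones were Atf3, Cldn5, Csrp2, Hba-a2 (under both of its gene identifiers), Itm2a, LOC100134871, LOC103694857, Rps6, Sgk1 and Zfp36. Without the barcodes that carried other cell types, 0 genes remained lower at all times, and Crot, Egr1 and Emsy were higher. In the cells with at least 2 UMIs of the ON genes, 7 genes were higher and 16 lower at all times. Those held 0 of the 3 higher genes above, so Crot was not among them, and 10 of the 11 lower ones.

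Crot stood at 18.6 CPM in control, 70.8 at 2 weeks, 39.5 at 4 weeks and 49.1 at 8 weeks, and without those barcodes at 17.7, 70.7, 39.1 and 49.7 CPM, nearly the same. Pde6h stood at 5.76, 56.6, 70.2 and 88.0 CPM in all members, and 1 barcode held 30.3% of its UMIs. Cldn5, a tight junction gene of endothelium, stood at 186, 59.7, 0 and 22.7 CPM. Rps6, a ribosomal protein gene, stood at 214, 46.0, 105 and 99.3 CPM over 510 cells, and LOC102550036 at 10.9, 25.4, 25.2 and 22.1 CPM over 118 cells.

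Srrm4, a neuronal splicing factor, stood at 44.8 CPM in control, 179 at 2 weeks, 80.04 at 4 weeks and 51.3 at 8 weeks (log2 ratio at 2 weeks 1.99, 1.62 to 2.39). It was highest at 2 weeks also in rod bipolar cells (64.8, 213, 70.2 and 49.7 CPM), in the Htr3a cells (70.6, 192, 78.0 and 73.1 CPM) and in rods (22.1, 58.7, 36.9 and 19.1 CPM). Sik1, a salt-inducible kinase, stood at 106, 18.0, 192 and 50.7 CPM in the cells (log2 ratio at 2 weeks -2.55, -3.14 to -2.02). It was lowest at 2 weeks and highest at 4 weeks also in rod bipolar cells (68.9, 14.5, 105 and 43.1 CPM), the Htr3a cells (69.5, 21.5, 78.0 and 40.0 CPM) and rods (68.9, 12.9, 154 and 54.9 CPM). The order of the 4 libraries in Sik1 was the same in these populations.

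Abcc10, an export pump, stood at 10.2, 58.1, 15.4 and 8.64 CPM (log2 ratio at 2 weeks 2.47, 1.74 to 3.36), against 8.10, 20.3, 10.9 and 8.17 CPM in rod bipolar cells. Lypd1, a membrane-anchored modulator of nicotinic receptors, stood at 12.8, 54.4, 21.9 and 24.8 CPM. Uqcrb, a subunit of respiratory complex III, stood at 16.0, 103, 30.7 and 48.0 CPM under the identifier ENSRNOG00000032204. A further identifier carries the same symbol, and how reads were shared between these copies is uncertain. Rods showed the same order under ENSRNOG00000032204, at 20.5, 121, 26.5 and 35.4 CPM. The further identifier was far more abundant in rods, at 583, 965, 723 and 556 CPM, so the values above describe a minor entry of the symbol. Lower at 2 weeks were Neto1 (26.2 CPM in control, 4.23 at 2 weeks), Fcer1a (208 and 64.5 CPM) and Sfrp2 (35.2 and 11.1 CPM). With at most 20% mitochondrial UMIs the ratios of Neto1 and Sfrp2 shrank to -0.66 and -0.79 and those of Abcc10 and Lypd1 to 1.42 and 1.31.

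Sparcl1 was lower than in control at 4 and 8 weeks. It stood at 392 CPM in control, 244 at 2 weeks, 82.2 at 4 weeks and 115 at 8 weeks, with log2 ratios of -0.68 (-0.86 to -0.51), -2.25 (-2.62 to -1.91) and -1.76 (-2.0 to -1.54). In the Htr3a cells it stood at 1281, 1415, 433 and 352 CPM, and in rod bipolar cells at 50.0, 45.7, 4.18 and 14.4 CPM. The libraries at 4 and 8 weeks were below those of control and 2 weeks in all 3 populations. Sparcl1 was also unevenly spread among the cells, and Scgn-only cells, which carried most of it, were 41.8% of members in control, 26.0% at 2 weeks, 30.5% at 4 weeks and 40.4% at 8 weeks. Within the Scgn-only cells with at least 2 UMIs of the ON genes it was 968, 825, 330 and 283 CPM, as given above.

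At 4 weeks P4ha2, a collagen prolyl hydroxylase, stood at 46.05 CPM against 8.32 in control (log2 ratio 2.43, 1.54 to 3.49), and Kifc2, a kinesin, at 55.9 against 13.4 CPM (2.04, 1.30 to 2.86). Abca7, a lipid transporter, and Eml2, a microtubule-associated protein, were higher with ratios of 1.54 and 1.51. Shisa8, a relative of AMPA receptor auxiliary proteins, stood at 67.8, 31.2, 8.77 and 37.8 CPM, lowest at 4 weeks (-2.87, -4.20 to -1.92). Slc24a2 stood at 31.4, 18.0, 7.67 and 25.4 CPM and Tomm6, of the outer mitochondrial membrane translocase, at 19.2, 29.6, 4.39 and 32.4 CPM. In the Htr3a cells, where both are more abundant, Shisa8 was at 129, 159, 90.8 and 143 CPM and Slc24a2 at 104.3, 101.3, 66.9 and 101.6 CPM, also lowest at 4 weeks. The fall from control to 4 weeks was smaller in proportion there. Scgn-only cells were 41.8% of members in control and 30.5% at 4 weeks, and the part of this shift in the differences was not tested.

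At 8 weeks St7l stood at 48.0 against 18.6 CPM (1.36, 0.75 to 2.03), Smdt1, a regulator of the mitochondrial calcium uniporter, at 68.0 against 30.1 CPM (1.17, 0.68 to 1.69), and Trnau1ap, a selenocysteine incorporation factor, at 69.1 against 30.7 CPM (1.16, 0.68 to 1.68). Smdt1 was lower than control at 4 weeks (12.1 CPM). Ankib1 stood at 11.3 against 30.7 CPM and Greb1l at 12.4 against 28.8 CPM. S100a7l2 stood at 244, 90.9, 255 and 102.5 CPM (-1.25, -1.51 to -1.0). It is abundant in OFF cells and its ratio turned to 0.54 among cells with at most 20% mitochondrial UMIs.

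**Figure D4:**
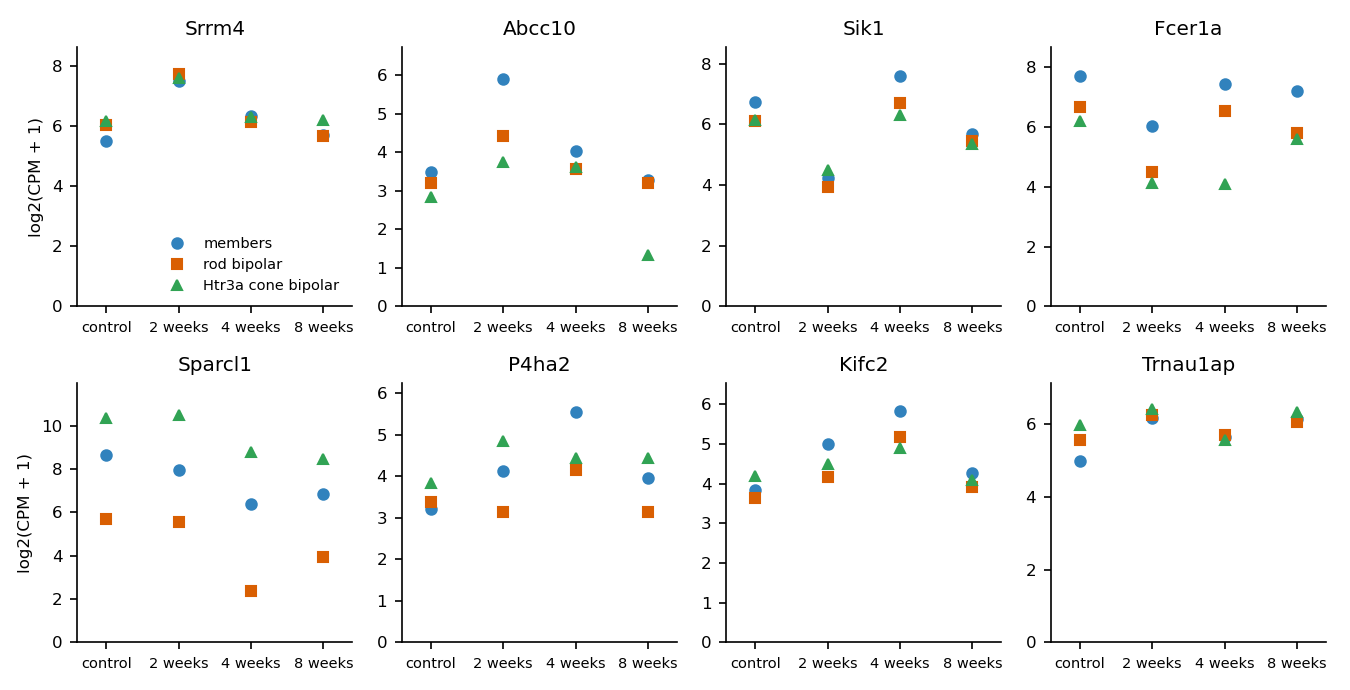
log2(CPM + 1) of 8 genes in the cells, rod bipolar cells and Htr3a cone bipolar cells by library (control, 2, 4 and 8 weeks), 1 point per library. Srrm4 peaks and Sik1 dips at 2 weeks in all 3 populations, and Sparcl1 is lower at 4 and 8 weeks in all 3.

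The lists of genes were read by their counts and medians beside those of all genes, with no test. Of the 14 genes of the ON cascade list 7 were used, and their median log2 ratio was 0.40, 0.26 and -0.01 at 2, 4 and 8 weeks. Of these 0 were higher at any time and Ccdc136 was lower at 2 weeks (23.0 against 10.0 CPM). Gnb3 stood at 974, 1394, 1438 and 1113 CPM and Pcp2 at 1094, 1566, 1755 and 1639 CPM, both lowest in control but within 2-fold. Of 12 bipolar transcription factors used, 0 were higher or lower, and of 21 genes of the ribbon and vesicle release 1 was higher at 2 weeks (Syp, which encodes synaptophysin, 90.9 against 33.3 CPM).

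Among the genes of ON cone types, Cabp5, the gene of another calcium-binding protein, stood at 145, 53.9, 105 and 256 CPM and Sox6 at 28.8, 12.7, 19.7 and 26.4 CPM. Both were called lower at 2 weeks, where Scgn-only cells made up the smallest share of members. The part of this shift in the difference was not tested.

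The 35 nuclear genes of the respiratory chain had medians of 0.23, 0.00 and -0.01, against 0.12, 0.08 and 0.04 over all genes. Of the 35, 28 were above 0 at 2 weeks, as were 62.7% of all genes. Only 1 was called higher (Uqcrb under the identifier ENSRNOG00000032204). Their summed level was 19096, 23187, 18824 and 19016 CPM. The 13 mitochondrially encoded genes had medians of -0.31, -0.13 and 0.09, and 0.03 and 0.00 at 2 and 4 weeks among cells with at most 20% mitochondrial UMIs, a limit on the sum of these same genes. Mitochondrial UMIs are part of every total, and with them left out of the totals the median of all genes at 2 weeks was 0.04 in place of 0.12. Glycolysis genes had medians of 0.10, 0.09 and -0.15 over 17 genes, with 0 called.

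The 8 rod genes used had medians of 1.33, 0.10 and 0.21, and 6 of them were higher at 2 weeks. Sag, which encodes rod arrestin, stood at 271, 1292, 389 and 365 CPM. Rod transcripts were thus a larger part of the UMIs at 2 weeks. With a rod profile subtracted the median of the rod genes at 2 weeks was -0.32. That subtraction is scaled by the rod genes themselves, so their median was bound to fall and shows nothing further. Rcvrn, the gene of the photoreceptor protein recoverin, was also higher at 2 weeks (1653 against 750 CPM).

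Targets of ATF4, a transcription factor of the integrated stress response, had medians of -0.15, -0.59 and -0.08 over 11 genes, and of -0.22, -0.33 and -0.06 over 9 genes without the barcodes that carried other cell types. Asns, the asparagine synthetase gene, stood at 38.4, 15.3, 16.4 and 44.3 CPM, lower at 2 and 4 weeks than in control and at 8 weeks. The levels in rods had the same low libraries, at 265, 8.86, 19.8 and 182 CPM, and those in rod bipolar cells were 60.8, 12.4, 15.1 and 59.5 CPM. Without the barcodes that carried other cell types Asns stood at 40.2, 15.7, 16.8 and 44.1 CPM in the cells, nearly unchanged. Of 11 heat shock genes used, Hspa1b was lower at 4 weeks (43.9 against 148 CPM), and without those barcodes its control level was 62.0 CPM.

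Immediate early genes, which are transcribed within minutes of stimulation or tissue handling, had medians of -0.45, -0.77 and -0.64 over 10 genes, with 2, 3 and 4 of them lower and 0 higher. Without the barcodes that carried other cell types the medians were -0.34, 0.31 and 0.04 over 9 genes, so the direction at 4 and 8 weeks turned. Junb stood at 227, 148, 61.4 and 96.1 CPM in all members and at 92.0, 59.5, 61.5 and 64.3 CPM without those barcodes. Nr4a1 stood at 73.6, 23.3, 41.7 and 35.1 CPM and at 52.5, 20.8, 42.5 and 36.3 CPM.

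Egr1, a zinc finger factor of this class, stood at 97.3, 149, 104 and 81.5 CPM in all members and was not called at any time. Without those barcodes it stood at 29.98, 102.7, 104 and 71.0 CPM, higher at each time than in control. Rod bipolar cells had 27.0, 104, 57.7 and 31.7 CPM, the Htr3a cells 36.8, 115, 97.1 and 66.2 CPM, and rods 23.2, 474, 12.4 and 18.4 CPM. Control was the lowest library in both bipolar populations but not in rods.

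**Figure D5:**
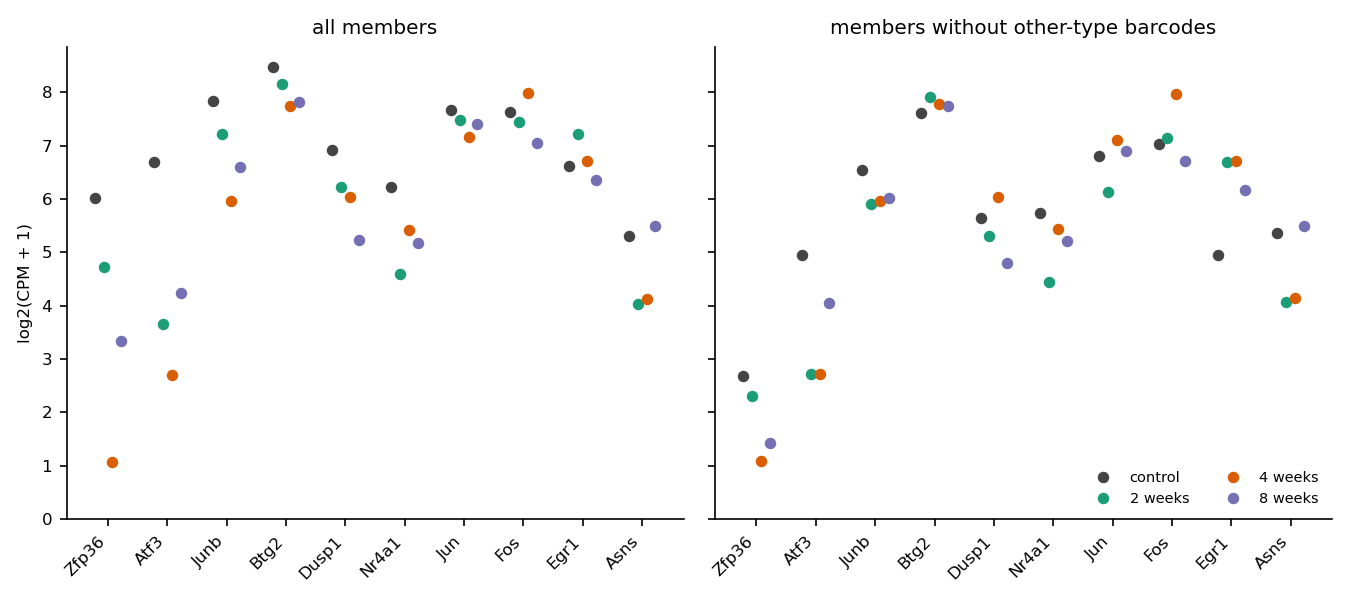
log2(CPM + 1) of 10 genes in each library (colours), in all members (left) and without the barcodes that carried UMIs of other cell types (right). The control points of Zfp36, Atf3, Junb and Egr1 are lower on the right, and Asns hardly moves.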

How the data were processed

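Droplet RNA-seq counts (10x chemistry) of rat retinal cells were used from 4 libraries, 1 control and 1 each at 2, 4 and 8 weeks of diabetes. The authors deposited filtered matrices of raw UMI counts per gene and barcode, made with Cell Ranger 3.0.1 on Rnor_6.0 per the submitters' processing notes, and the annotation release is not given in the sources used here. The matrices hold 25399 genes, 128 symbols belong to more than 1 gene, and every deposited barcode has at least 500 UMIs. Gene names are those of the files, and 20 listed genes have no symbol there.

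Cells were chosen by counts of named genes, without clustering. The members and the gene lists were chosen with earlier results of these data known. Counts were summed per library and population, with at least 20 cells per sum, and tested with edgeR 4.0.16 (R 4.3.3; TMM, filterByExpr, quasi-likelihood test, Benjamini-Hochberg adjustment; all 4 bipolar populations in 1 fit, library as block). Populations of a library come from the same specimen, which is where the pairing comes from. Rule genes were not tested. Since nothing says that the libraries are more than 1 animal each, p-values measure the spread between these 4 libraries. Diabetic and control libraries were compared by log2 ratios of CPM with exact conditional binomial 95% intervals, 0.5 counts added and a count of 0 set to 3. Genes used had a mean of at least 20 CPM and 30 UMIs. Intervals cover counting error only.

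Named between populations were up to 12 genes highest and 12 lowest in fold among those called, changed the same way in all libraries and at 50 CPM or more. Named between libraries were up to 8 genes called at all times and the 4 highest and 4 lowest others per time, with a UMI in at least 10 cells, no cell above 25% of the UMIs and, in the highest library, at least the CPM of all barcodes, besides markers and up to 6 genes of each list. Predicted, mitochondrial and ribosomal protein genes were left out by symbol in both. Doublets stayed in, and an alternative left out the top Scrublet barcodes at 0.8% per 1000 barcodes (scanpy 1.11.5), which called 35 to 117 members per library. Alternatives were DESeq2 1.42.0, other filters, folds, mitochondrial limits, scalings, thinning, subtraction of rod RNA and leaving out libraries. Added after seeing the data were the cells with at least 2 UMIs of Trpm1, Grm6 and Isl1, and the cells without barcodes carrying at least 5 UMIs of endothelial, pericyte, microglial or cone markers, 10 of Müller glia or 20 of erythroid markers. The statistics were tested on simulated data. Promoters were matched by symbol to RefSeq GRCr8. Some genes that the naming rule picks are not reported here.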

Additional observations from a re-analysis of the deposited data

Results flagged for a closer look

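Of 15 measures compared over the 4 libraries, some of which overlap, 4 had a library far from the other 3 by Dixon's test of the gap over the range, which chance gives in about 1 of 20 such groups. Rod genes took 1.76% of the cells' UMIs at 2 weeks, against 0.597 to 0.669% in the other libraries. Summed rod markers stood at 17606 CPM at 2 weeks against 5970 to 6690 CPM, which is the same sum in another unit and counts once. The nuclear genes of the respiratory chain summed to 23187 CPM at 2 weeks against 18824 to 19096 CPM. The part of rod RNA in that sum was not tested. Cells without a UMI of Trpm1, Grm6 or Isl1 were 27.0% of members at 4 weeks against 16.4 to 17.7%.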

How the results depend on the processing

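Each group had 1 library, so differences between libraries carry counting error alone, and time cannot be told apart from animal, age, diet or preparation. Depth is limited for low genes and for the 131 OFF cells.

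Populations: calls against rod bipolar cells numbered 642 and became 1195 at 1.5-fold, 235 at 3-fold and 289 with at most 20% mitochondrial UMIs, and those against Htr3a cells 526, 821, 295 and 175. Without a library they ranged over 489 to 694 and 445 to 507, and against OFF cells over 113 to 230 (lowest without the 8 week library) in place of 239. The fit with at most 20% mitochondrial UMIs could not be fitted for OFF cells. DESeq2 called 598, 490 and 208. With no replicate block in place of the pairing by library the calls were 504, 419 and 162. Grin2b against rod bipolar cells turned to -0.51 in cells with at least 2 UMIs of Trpm1, Grm6 and Isl1. The other results that lost a call are named above.

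Shares (log2): at 2 weeks 0.99 with at most 20% mitochondrial UMIs, 0.67 thinned and -0.34 of bipolar cells; at 4 weeks 0.0013 thinned, -0.14 of bipolar cells and -1.10 in cells with at least 2 UMIs of the ON genes; at 8 weeks -0.22 of bipolar cells. Genes called at 2, 4 and 8 weeks were 189, 202 and 64. They became 416, 380 and 237 with a minimum of 5 CPM, 34, 20 and 12 with 100 CPM, 804, 703 and 307 at 1.5-fold, and 31, 41 and 21 at 3-fold. With at most 20% mitochondrial UMIs they were 381 at 2 weeks and 230 at 8 weeks, and in cells with at least 2 UMIs of the ON genes 284 and 109. At 8 weeks they were 102 without mitochondrial UMIs in the totals and 37 without barcodes of other types. With at most 20% mitochondrial UMIs S100a7l2 at 8 weeks became 0.54 and the mitochondrially encoded medians 0.029 and 0.0045 at 2 and 4 weeks, where the limit acts on the sum of those genes. The rod median at 2 weeks became -0.32 with rod RNA subtracted, where the subtraction is scaled by those same genes. The early gene medians became 0.31 and 0.037 at 4 and 8 weeks without barcodes of other types. Beyond those following from fewer or more genes tested, the cause was not tested. Of the other list medians 176 moved little and 29 moved.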
